A study of Mus musculus with 15 samples.

Results

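The interleukins and their receptors were taken as the protein-coding genes of the count table whose symbol starts with Il and a digit, without Il1b and Il18. This rule used the gene names alone and found 80 of 46078 genes. Read counts came from podocyte fractions of kidney cortex, sorted from male C57BL/6J mice with magnetic beads and antibodies to nephrin, a protein of the podocyte slit diaphragm. The young group held 5 libraries from uninjected mice aged 4 months. The 4 IgG2a libraries came from mice that were 21 months old at randomization and were injected intraperitoneally each week with 12 mg/kg of the isotype control antibody 2A3. The 4 aPD1ab libraries came from mice of the same age given weekly 12 mg/kg of RMP1-14, an antibody to the checkpoint receptor PD-1. Injections ran for 8 weeks by the protocol, while the titles of the aPD1ab samples give 47 days. Because the young mice were not injected, age and injection cannot be told apart in either comparison with them. The columns of the count table carry bare numbers that the sample labels do not hold, so the group of each of the 13 libraries rests on the numbers in the study's principal component plot, and 2 columns absent from it were not used. Replicate numbers below only name the libraries of a group.

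Interleukins are secreted proteins with which leukocytes, epithelium and stroma signal to each other. Most of their receptors pair a specific chain with a shared chain, such as the common gamma chain (Il2rg), the common beta chain (Csf2rb) or gp130 (Il6st), and signal through JAK kinases and STAT transcription factors, whereas receptors of the IL-1 and IL-17 families use adaptors such as Myd88 and Traf3ip2. Many receptors are carried mainly by leukocytes, others such as gp130 by most cells, and soluble antagonists such as the IL-1 receptor antagonist (Il1rn) limit the signal.

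Libraries held 19912969 to 32717100 counted reads. On the first principal component of all genes, which held 38.0% of the variance, IgG2a replicate 1 lay at -16.4 and the other IgG2a libraries at 76.1 to 89.5, so each result with IgG2a is given with and without that library. The summed level of 5 leukocyte markers was 2116 to 2448 CPM (counts scaled to the TMM-adjusted library total) in IgG2a replicates 2 to 4, against 775 in IgG2a replicate 1, 753 to 1288 in the young libraries and 638 to 1425 in aPD1ab. The 9 macrophage markers summed to 5089 to 6945 CPM in IgG2a replicates 2 to 4, 2147 in replicate 1, 1473 to 2616 in young and 1569 to 3775 in aPD1ab. The T cell markers summed to 4.44 to 26.95 CPM and the mast cell markers to at most 1.12 CPM in any library. Podocyte markers were present in all libraries and summed to 872 to 1413 CPM in young, 523 to 723 in IgG2a and 267 to 857 in aPD1ab. In bulk fractions, fewer cells of a type and less RNA per cell cannot be told apart.

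Upstream sequences are shown for some of the members that passed the test in aPD1ab against young, the comparison that does not involve the IgG2a library apart. The genes for the cytokine Il1a and its antagonist Il1rn were higher there, and the receptor chains Il6st and Il13ra1 were lower. Each run is the 250 bases before a RefSeq transcript start in GRCm38.p6, 5′ to 3′ on the strand of the gene. Capitals mark matches, on either strand, to 4 motifs: TGACTCA for the factor AP-1, GAGGAAG for ETS family factors such as PU.1, TATAAA for the TATA box and TTCNNNGAA for STAT factors.
Il1a, chr2:129309973-129310222, - strand: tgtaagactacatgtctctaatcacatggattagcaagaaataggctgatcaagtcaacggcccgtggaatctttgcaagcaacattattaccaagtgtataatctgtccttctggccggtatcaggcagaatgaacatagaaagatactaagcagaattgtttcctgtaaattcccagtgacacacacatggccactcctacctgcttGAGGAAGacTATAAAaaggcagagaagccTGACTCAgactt
Il1rn, chr2:24336610-24336859, + strand: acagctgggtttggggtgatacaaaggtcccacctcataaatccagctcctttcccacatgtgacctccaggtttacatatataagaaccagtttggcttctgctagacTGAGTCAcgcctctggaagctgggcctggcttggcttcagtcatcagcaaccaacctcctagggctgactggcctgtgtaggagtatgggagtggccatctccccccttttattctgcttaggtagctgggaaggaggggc
Il6st, chr13:112463820-112464069, + strand: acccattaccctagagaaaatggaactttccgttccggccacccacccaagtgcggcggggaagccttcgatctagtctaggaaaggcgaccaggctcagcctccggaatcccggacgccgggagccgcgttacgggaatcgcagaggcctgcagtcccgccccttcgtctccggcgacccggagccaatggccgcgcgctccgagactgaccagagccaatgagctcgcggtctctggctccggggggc
Il13ra1, chrX:36111858-36112107, + strand: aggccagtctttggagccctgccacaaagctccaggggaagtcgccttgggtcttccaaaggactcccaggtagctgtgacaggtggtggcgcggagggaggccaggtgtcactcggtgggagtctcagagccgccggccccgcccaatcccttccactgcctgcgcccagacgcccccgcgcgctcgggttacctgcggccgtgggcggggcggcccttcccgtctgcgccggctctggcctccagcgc
The Il1a run held the ETS, TATA and AP-1 letters, whose first bases lay 41, 32 and 12 bases before the start. In the Il1rn run the AP-1 letters began 141 bases before the start, and the runs of both receptor genes held none of the 4 motifs. Of the called members not shown, Il12rb2, which fell, held the STAT letters. Il10, Il10rb and Il11ra1, which rose, and Il1r1, which fell, were not among the members with a match. Whether each of these genes had a window is not given here, so a missing match may be a missing window. The runs shown do not stand for all members that rose or fell. A RefSeq start was matched for 63 of the 80 members. The AP-1 letters stood in 10 of these 63 windows (15.9%) and in 4.46% of the 32851 windows over all RefSeq starts. The 10 were Il1a, Il1rn, Il16, Il17rb, Il6, Il5ra, Il20ra, Il9, Il1f8 and Il13ra2. Of these, Il9, Il1f8 and Il13ra2 had no read in any library, Il20ra was not tested, and Il6 and Il5ra were called in no comparison. The ETS letters were found in 6 members (9.52%, against 10.6% of all windows), the STAT letters in 6 (9.52% against 7.02%) and the TATA box in 10 (15.9% against 12.4%). A match is a run of letters and no measured binding site.

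Receptors made up most of the measured members. Of 36 members in the receptor lists, 32 had enough reads to be tested in at least 1 comparison, whereas 9 of 31 in the ligand lists did. The ligand lists leave out Il3 and Il5, which were grouped with the receptors of the common beta chain, and Il16 and Il34, which were grouped as other secreted members and were both tested. Among all 80 members, 50 were tested and 30 were not, and 10 of the latter had no read in any library: Il3, Il5, Il9, Il17a, Il17b, Il20, Il22, Il31, Il1f8 and the decoy receptor Il13ra2. A count of 0 allows up to 0.0917 to 0.151 CPM, depending on the library, when the library total is not TMM-adjusted. On the TMM-adjusted scale used for the other values, the limit is higher in libraries with a TMM factor under 1. The lowest factor was 0.706, in IgG2a replicate 4, whose limit was 0.146 CPM before adjustment. The 20 other untested members, Il2, Il13, Il21, Il23a and Il12a among them, reached no more than 0.48 CPM in any library. Counts of this kind show that these transcripts were not detectable at this depth, not that they are absent.

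Levels between genes were compared as CPM per kb of exon, averaged over the 13 libraries. Il10ra, the ligand-binding chain of the IL-10 receptor at chr9:45253837-45269149 (GRCm38), had by far the most, 62.2 CPM per kb. Next came Il13ra1 with 17.7, Il4ra with 14.3, Il10rb with 13.5, Il6st with 12.6, Il21r with 10.8 and Il11ra1 with 10.6. Il2rg (9.2), Il6ra (7.06) and the IL-17 receptor chain Il17ra (5.42) followed, all of them receptor chains. Library values of these genes overlapped widely between neighbours in this order, except that Il10ra exceeded every other member in each library. Of the genes in the ligand lists, Il15 (5.4), Il1a (3.21), Il10 (2.21), Il6 (1.69) and Il27 (1.29) exceeded 1 CPM per kb, as did the other secreted cytokines Il34 (3.78) and Il16 (2.56). The most abundant IL-17 ligand by mean CPM, Il17d, lay at 0.207 CPM (between 0.0562 and 0.48 in libraries with reads and 0 in 1 young library), while its receptor family was measured in full, with 5 of 5 chains tested.

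**Figure D1:**
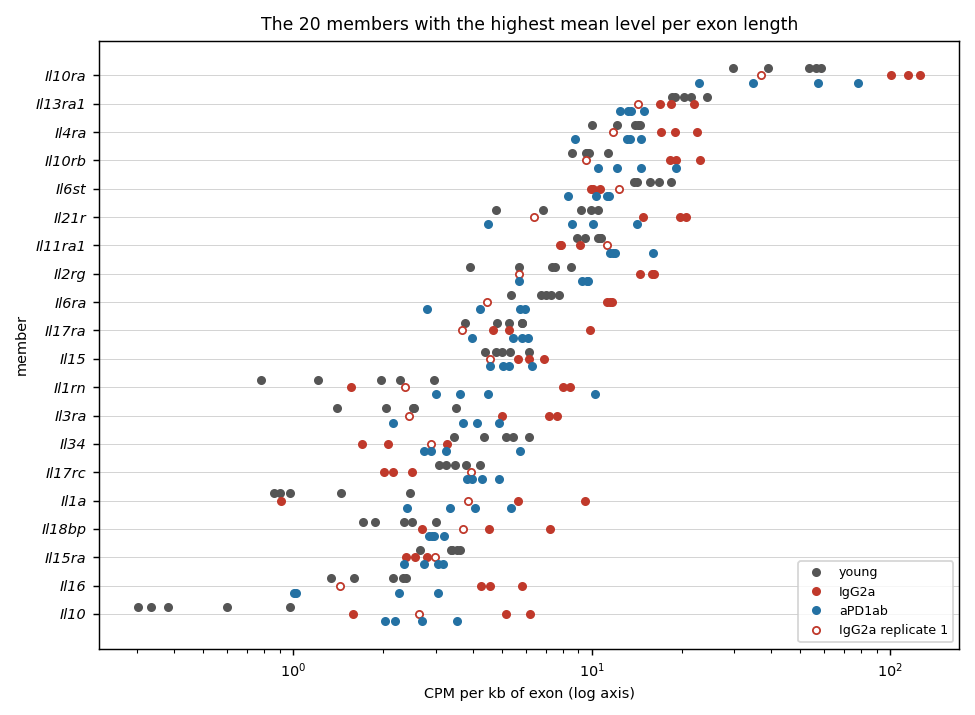
Level of the 20 members with the highest mean, in CPM per kb of exon on a log axis, with 1 point per library (grey young, red IgG2a, blue aPD1ab, open red IgG2a replicate 1). Il10ra stands highest, and IgG2a replicates 2 to 4 lie to the right of the other libraries for Il10ra, Il4ra, Il21r, Il2rg and Il6ra but not for Il6st, Il11ra1 or Il17rc.

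Between aPD1ab and young mice, 5 members rose and 4 fell at an adjusted p under 0.05, of 49 tested. Il10, Il1a, Il1rn, Il10rb and Il11ra1 were higher in aPD1ab, and Il6st, Il13ra1, Il1r1 and Il12rb2 were lower. Over all 15986 genes tested, 12.4% were called higher and 9.97% lower, so the shares of members called were close to those of all genes and are no result about the members as a group. The median log2 difference of the members was 0.05, and that of all genes 0.02. The leukocyte marker sums of these groups overlapped.

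Il10, a cytokine that restrains macrophage and T cell responses (chr1:131019845-131024974), read 0.497, 1.28, 0.397, 0.436 and 0.784 CPM in the young libraries, 3.46, 8.14, 6.79 and 2.07 in IgG2a and 2.88, 3.54, 2.67 and 4.64 in aPD1ab. Every aged library of either treatment lay above every young library, and IgG2a replicate 1 was among them. The log2 difference was 2.33 ± 0.36 (SE) for aPD1ab against young (adjusted p = 0.00407) and 2.96 ± 0.48 for IgG2a against young (adjusted p = 0.00859, or 0.000598 without IgG2a replicate 1). Both calls held in all 15 alternative settings or reduced sets of libraries. Both comparisons share the young libraries. For aPD1ab against IgG2a the difference was -0.59 ± 0.43 (adjusted p = 0.377), or -0.75 ± 0.44 without IgG2a replicate 1 (adjusted p = 0.22). Set against the leukocyte marker sum of the same library, Il10 stood at 0.422 to 0.995 CPM per 1000 marker CPM in young, 1.87 to 5.55 in aPD1ab, 4.46 in IgG2a replicate 1 and 0.847 to 3.46 in IgG2a replicates 2 to 4. The other 4 ligands of the IL-10 family were not tested.

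Il10rb, the chain that IL-10 shares with IL-22 and other cytokines, gave 37.3, 36.4, 36.8, 32.7 and 43 CPM in the young libraries, 36.4, 88, 72.8 and 69.7 in IgG2a and 55.5, 40, 72.8 and 46.2 in aPD1ab. Only aPD1ab replicate 2 among the aPD1ab libraries lay within the young range. The rise was 0.53 ± 0.16 in aPD1ab (adjusted p = 0.0346) and 0.91 ± 0.22 in IgG2a (adjusted p = 0.0258, or 1.10 ± 0.11 with adjusted p = 2.92e-05 without IgG2a replicate 1). In aPD1ab this call was lost without any 1 of young replicates 1 to 4 or aPD1ab replicates 1 or 3, with adjusted p up to 0.12 over the alternatives, and in IgG2a without any 1 of young replicates 1 to 4 or IgG2a replicates 2 to 4 (adjusted p up to 0.0781). Of its exon bases, 14.9% are shared with the gene model Gm21970 on the same strand, so some reads could have been assigned to either.

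Il1a encodes IL-1 alpha, an alarm cytokine stored in cells and released on damage, and lies at chr2:129299610-129309972. Its level was 2.86, 1.92, 1.71, 1.78 and 4.85 CPM in the young libraries, 7.62, 18.8, 11.2 and 1.8 in IgG2a and 8.01, 6.59, 4.76 and 10.6 in aPD1ab. Young replicate 5 slightly exceeded aPD1ab replicate 3, and IgG2a replicate 4 sat at the level of the young mice while the other IgG2a libraries lay above them. The difference was 1.54 ± 0.34 in aPD1ab (adjusted p = 0.0126) and 1.99 ± 0.55 in IgG2a (adjusted p = 0.0374, or 0.0262 without IgG2a replicate 1). Whereas the first call held in 14 of 15 alternatives, the second was lost without any 1 of young replicates 1 to 4 or IgG2a replicates 2 or 3, with adjusted p up to 0.126.

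Il1rn, whose product blocks the IL-1 receptor, measured 12.6, 16.4, 6.71, 4.33 and 10.9 CPM in the young libraries, 13.1, 44.5, 46.9 and 8.64 in IgG2a and 16.6, 20, 24.8 and 56.6 in aPD1ab. All aPD1ab libraries exceeded all young libraries, though the lowest by little, and IgG2a replicates 1 and 4 lay within the young range. For aPD1ab the difference was 1.55 ± 0.43 (adjusted p = 0.0284), a call lost without young replicate 3, 4 or 5 or aPD1ab replicate 4, with adjusted p up to 0.0949 over the alternatives. For IgG2a it was 1.54 ± 0.54 (adjusted p = 0.0722), and 1.77 ± 0.56 without IgG2a replicate 1 (adjusted p = 0.0326).

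Il11ra1, the IL-11 receptor chain, reached 40, 42.3, 47.1, 47.9 and 47.5 CPM in the young libraries, 50.4, 41, 35.3 and 34.9 in IgG2a and 53.7, 52.6, 72 and 51.4 in aPD1ab. Each aPD1ab library was higher than each library of the other groups, and aPD1ab replicate 3 stood above the rest. Its difference from young was small, 0.36 ± 0.12 (adjusted p = 0.047), and was called in only 3 of 15 alternatives. It was lost without any 1 of the 5 young libraries or aPD1ab replicates 1, 3 or 4, with adjusted p up to 0.109. Il11ra2, a close copy of the gene with which reads can be shared, lay near 1.15 CPM and gave 0.67 ± 0.24 (adjusted p = 0.0712).

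Il6st encodes gp130, the signalling chain shared by IL-6, IL-11, LIF and related cytokines, and lies at chr13:112464070-112510086. The libraries gave 153, 158, 186, 204 and 174 CPM in the young libraries, 137, 110.5, 112 and 118 in IgG2a and 125, 114, 92.1 and 126 in aPD1ab. All 8 aged libraries, IgG2a replicate 1 included, lay below all 5 young libraries. Il6st fell by 0.60 (SE 0.134) on the log2 scale in aPD1ab (adjusted p = 0.012), and no library left out ended that call. In IgG2a it fell by 0.49 (adjusted p = 0.0293), or by 0.57 without IgG2a replicate 1 (adjusted p = 0.00164), but this call was lost without any 1 of young replicates 3 to 5 or IgG2a replicates 2 to 4, with adjusted p up to 0.0921. The aged groups differed from each other by -0.07 ± 0.15 (adjusted p = 0.779), or -0.01 ± 0.14 without IgG2a replicate 1 (adjusted p = 0.95).

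Il13ra1, a chain of the receptor for IL-13 and IL-4, read 75.9, 70.8, 68.9, 90.6 and 79.9 CPM in the young libraries, 52.9, 62.6, 68.2 and 81.8 in IgG2a and 50.3, 49, 55.6 and 46 in aPD1ab. Young and aPD1ab did not overlap, and the IgG2a libraries spread over both ranges. The log2 difference of aPD1ab from young was -0.61 ± 0.10 (adjusted p = 0.00512) and was called without any 1 library. That of IgG2a from young was -0.15 ± 0.14 (adjusted p = 0.476).

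Il1r1, the signalling receptor for IL-1, stood at 11.1, 9.71, 10.6, 19.6 and 10.3 CPM in the young libraries, 10.1, 6.67, 8.83 and 8.64 in IgG2a and 6, 8.02, 3.97 and 7.98 in aPD1ab. Young replicate 4 was far above the other young libraries, and all aPD1ab libraries were below all young ones. The difference was -0.90 ± 0.27 (adjusted p = 0.0357) and was lost without young replicate 1, 3 or 4 or aPD1ab replicate 1 or 3, with adjusted p up to 0.0692. Il12rb2, a chain of the IL-12 receptor, was low in every library (2.35 ± 0.731 CPM in young, SD, n = 5, and 1.14 ± 0.33 in aPD1ab, n = 4) and differed by -1.02 ± 0.32 (adjusted p = 0.0435). Opposite-strand exons of Serbp1 overlap 40.0% of its exon bases, and without young replicate 1, 2, 4 or 5 or aPD1ab replicate 1, 2 or 3 the call was lost, with adjusted p up to 0.0918, or 0.117 by limma voom with sample weights.

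**Figure D2:**
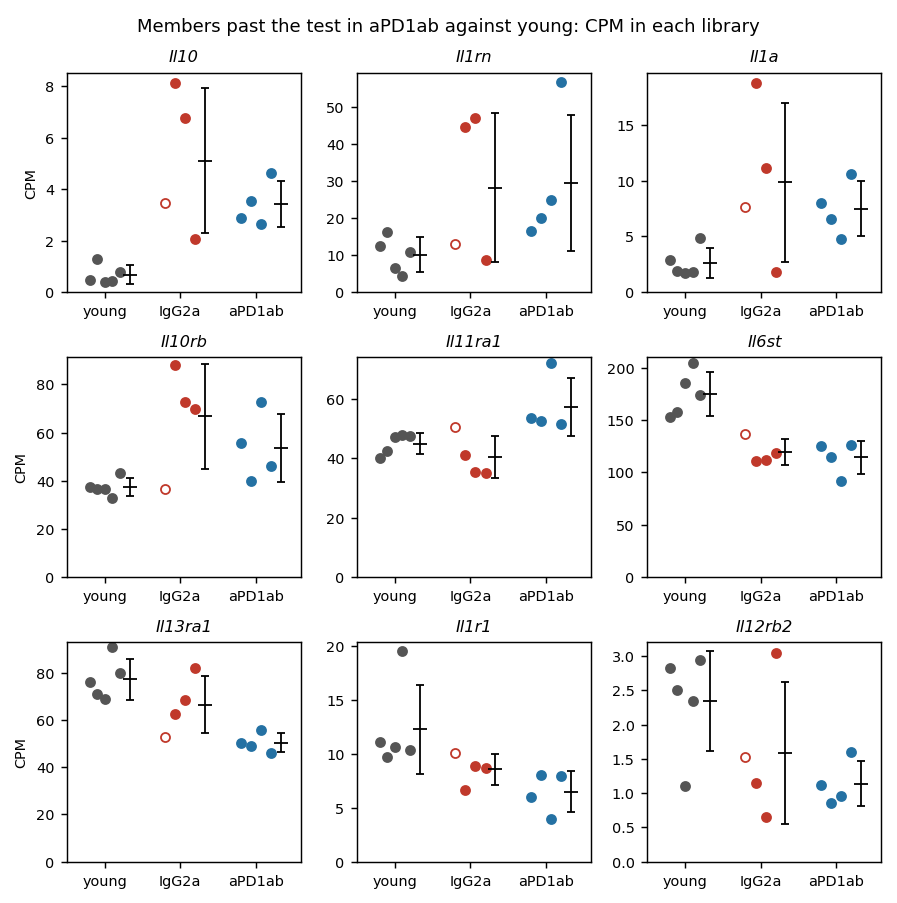
CPM of the 9 members past the test in aPD1ab against young, 1 panel per gene, 1 point per library, with the mean and SD as a bar (young n = 5, IgG2a n = 4, aPD1ab n = 4, IgG2a replicate 1 open). For Il10 all aged libraries lie above 2.06 CPM and all young ones below 1.29, and for Il6st all aged libraries lie below the lowest young library at 153 CPM.

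Aged IgG2a mice were compared with young mice over 50 tested members. The receptor chains Il2ra, Il7r, Il2rg, Il10rb, Il18r1 and Il3ra, the cytokines Il10 and Il1a and the binding protein Il18bp were higher in IgG2a, and the receptor chains Il6st and Il17rb and the cytokine Il34 were lower. With all libraries, 9 members rose and 3 fell, beside 9.05% and 8.38% of 15953 genes. Without IgG2a replicate 1, 19 rose and 6 fell, beside 22.1% and 23.5% of 16216 genes. In this reduced set the members called higher were more frequent than all genes called higher, and those called lower less frequent, and the difference of these shares was not tested. The median log2 difference of members was 0.26, or 0.48 without IgG2a replicate 1, whereas the median of all genes was 0.04 or -0.01. The count of members that rose moved to 2, 3, 2 and 2 without young replicate 1, 2, 3 or 4, and to 2, 1 and 4 without IgG2a replicate 2, 3 or 4. The count that fell moved to 1 without young replicate 3 or 4 or IgG2a replicate 2 or 4 and to 0 without IgG2a replicate 3. Over all genes, those called higher dropped to between 260 and 603 in these sets, and those called lower to between 293 and 673.

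Of the receptors of the common gamma chain family, together with Il13ra1, 3 of 9 rose with all libraries, beside 9.05% of all genes. Without IgG2a replicate 1, 6 of 9 rose, beside 22.1% of all genes, and none fell in either fit. The difference of these shares was not tested. Il2ra, the high-affinity chain of the IL-2 receptor (chr2:11642807-11693193), was at 3.69, 2.63, 2.22, 1.64 and 4.29 CPM in the young libraries, 3.19, 19.5, 17.5 and 17.2 in IgG2a and 5.32, 2.4, 11.3 and 2.95 in aPD1ab. IgG2a replicates 2 to 4 lay far above all young libraries, and IgG2a replicate 1 lay among them. Its log2 difference was 2.38 ± 0.48 (adjusted p = 0.0163), a call lost only without IgG2a replicate 3 (adjusted p = 0.0529), and 2.70 ± 0.25 without IgG2a replicate 1 (adjusted p = 2.64e-05). Relative to 1000 CPM of leukocyte markers it was 7.03 to 8.3 in IgG2a replicates 2 to 4, 4.12 in IgG2a replicate 1 and 2.04 to 3.49 in young, without overlap, and 3.1 to 7.92 in aPD1ab.

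Il7r, the IL-7 receptor chain, gave 1.7, 1.71, 2.3, 1.24 and 1.94 CPM in the young libraries, 1.11, 9.16, 4.04 and 8.92 in IgG2a and 2, 1.18, 3.57 and 2.36 in aPD1ab. The same IgG2a libraries stood above the young ones, and replicate 1 was the lowest library of all. Il7r rose by 1.77 ± 0.51 (adjusted p = 0.0418) and by 2.11 ± 0.29 without IgG2a replicate 1 (adjusted p = 0.00021). Il2rg, the common gamma chain itself, read 17.6, 20.3, 13.7, 9.33 and 18 CPM in the young libraries, 13.6, 34.5, 38 and 38.7 in IgG2a and 22.1, 13.6, 23.2 and 23 in aPD1ab. It showed the same split, and rose by 1.05 ± 0.32 (adjusted p = 0.0476) or 1.28 ± 0.21 (adjusted p = 0.000873). Exons of Gm20489 on the same strand cover 30.5% of its exon bases. Both calls over all libraries were lost without any other single library, young or IgG2a, and their adjusted p reached 0.133 and 0.129. Il21r (1.21 ± 0.24, adjusted p = 0.00332), Il4ra (0.64 ± 0.14, adjusted p = 0.00308) and Il2rb (1.49 ± 0.47, adjusted p = 0.0267) passed without IgG2a replicate 1 alone. With that library their adjusted p was 0.0724, 0.0887 and 0.093. Il15ra and Il9r did not pass in either fit.

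Il10ra had 197, 205, 136, 104 and 186 CPM in the young libraries, 129, 401, 441 and 353 in IgG2a and 201, 80.1, 274 and 121 in aPD1ab. IgG2a replicates 2 to 4 exceeded every young library and replicate 1 lay within the young range. With all libraries the difference was 1.07 ± 0.34 and missed the threshold (adjusted p = 0.0556), and without IgG2a replicate 1 it was 1.32 ± 0.21 (adjusted p = 0.000625). Per 1000 CPM of leukocyte markers, Il10ra was nearly even: 138 to 167 in young, 144 to 208 in IgG2a replicates 2 to 4, 167 in replicate 1 and 126 to 192 in aPD1ab. Il22ra1, the epithelial IL-22 receptor chain, was low (1.31 ± 0.52 CPM in young, n = 5) and fell without IgG2a replicate 1 (-1.61 ± 0.57, adjusted p = 0.0406).

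Among IL-1 family receptors, Il18r1 and Il18rap, the chains of the IL-18 receptor, and Il1rl2, the IL-36 receptor, were called. Il18r1 was 2.32, 1.59, 1.71, 2.25 and 5 CPM in the young libraries, 3.58, 6.5, 7.97 and 13.8 in IgG2a and 5.08, 1.26, 7.2 and 2.44 in aPD1ab. Young replicate 5 exceeded IgG2a replicate 1, and the other IgG2a libraries were above all young ones. Il18r1 rose by 1.70 ± 0.43 (adjusted p = 0.0302), or 1.92 ± 0.38 without IgG2a replicate 1 (adjusted p = 0.00265). The first of these calls was lost without any 1 of young replicates 1 to 4 or IgG2a replicates 2 to 4, with adjusted p up to 0.0859. Il18rap (1.18 ± 0.23, adjusted p = 0.00196) and Il1rl2 (0.67 ± 0.21, adjusted p = 0.0233) passed in the reduced set. Il1rl1, the IL-33 receptor and the most abundant of this list by CPM, spanned 7.86 to 17.8 CPM in young, 5.01 to 23.6 in IgG2a and 0.571 to 14.0 in aPD1ab and passed in no comparison. Il33 itself, an alarm cytokine of stromal and epithelial cells, rose without IgG2a replicate 1 (1.19 ± 0.32, adjusted p = 0.0113) from a mean of 1.1 CPM in young. The IL-18 binding protein Il18bp, a secreted inhibitor, gave 5.68, 9.07, 7.58, 5.17 and 7.13 CPM in the young libraries, 11.2, 21.9, 13.7 and 8.16 in IgG2a and 8.81, 8.63, 9.7 and 8.94 in aPD1ab. Its IgG2a values lay above the young ones except in replicate 4, and it rose by 1.06 ± 0.28 (adjusted p = 0.0325) or 1.14 ± 0.29 (adjusted p = 0.011). With all libraries it depended on young replicates 1, 3, 4 and 5 and IgG2a replicates 2 and 3, each of which ended the call when left out (adjusted p up to 0.0905).

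Il3ra, the IL-3 receptor chain, had 7.46, 7.54, 6.07, 4.16 and 10.4 CPM in the young libraries, 7.24, 22.7, 21.4 and 14.9 in IgG2a and 11, 6.39, 14.5 and 12.2 in aPD1ab. IgG2a replicates 2 to 4 lay above all young libraries, and it rose by 1.29 ± 0.35 (adjusted p = 0.0339) or 1.52 ± 0.25 without IgG2a replicate 1 (adjusted p = 0.001). Leaving out any 1 of young replicates 1 to 4 or IgG2a replicates 2 to 4 ended the Il3ra call over all libraries (adjusted p up to 0.105). Il6ra, the specific chain of the IL-6 receptor, stood at 58.4, 62.9, 46.3, 60.5 and 67.3 CPM in the young libraries, 38.6, 96.9, 99.6 and 101 in IgG2a and 51.6, 24.2, 49.7 and 36.5 in aPD1ab. IgG2a replicates 2 to 4 lay close to each other and above all other libraries, and replicate 1 was below all young libraries. With all libraries Il6ra did not pass (0.58 ± 0.26, adjusted p = 0.14), whereas without replicate 1 it rose by 0.80 ± 0.11 (adjusted p = 0.000222), while its partner Il6st fell. Il16, a leukocyte chemoattractant, read 18.8, 18.3, 12.5, 10.5 and 16.9 CPM in the young libraries, 11.3, 35.9, 33.6 and 45.8 in IgG2a and 17.8, 8.02, 24.1 and 7.93 in aPD1ab. The same 3 IgG2a libraries stood highest, with a rise of 1.37 ± 0.19 without replicate 1 (adjusted p = 0.000337) and 1.11 ± 0.35 with it (adjusted p = 0.0539). Opposite-strand exons of Stard5 overlap 15.3% of its exon bases.

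Il34, Il17rb and Il6st, described above, were the members that fell with all libraries. Markers of other kidney cells were called lower in the same comparison: 7 of 8 proximal tubule markers (8 of 8 without IgG2a replicate 1), 6 of 7 endothelial markers (7 of 7) and 6 of 8 podocyte markers (6 of 8), with 1 other podocyte marker called higher. The proximal tubule markers summed to 4054 to 6605 CPM in young and 565.7 to 2988 in IgG2a, and the endothelial markers to 694 to 1043 and 526.7 to 658. Their part in the falls of these members and of Il17rc and Il17rd was not tested. Il34, a ligand of the receptor Csf1r made by epithelium, measured 12.1, 10.1, 6.75, 10.6 and 8.51 CPM in the young libraries, 5.69, 6.42, 3.34 and 4.08 in IgG2a and 6.37, 11.2, 5.67 and 5.37 in aPD1ab. All IgG2a libraries lay below all young ones, and Il34 fell by 0.91 (adjusted p = 0.03), or by 0.99 without IgG2a replicate 1 (adjusted p = 0.00811). The call over all libraries was lost without young replicate 1, 2 or 4 or IgG2a replicate 3 or 4, with adjusted p up to 0.0841. Il17rb, the receptor chain for IL-25, was 4.44, 4.95, 4.84, 4.06 and 5.04 CPM in the young libraries, 3.25, 1.96, 2.53 and 1.66 in IgG2a and 2.56, 8.92, 4.76 and 4.19 in aPD1ab. Again no IgG2a library reached the young range, with a fall of 0.91 (adjusted p = 0.0216) or 1.12 (adjusted p = 0.00109). It was lost without young replicate 3 or IgG2a replicate 2 or 3, with adjusted p up to 0.0687. Further IL-17 receptor genes, Il17rc (-0.62 ± 0.15, adjusted p = 0.00598) and Il17rd (-0.59 ± 0.14, adjusted p = 0.00621), fell in the reduced set. In that set 3 of 5 chains of this family were called lower, beside 23.5% of all genes, and the difference of these shares was not tested. With IgG2a replicate 1 the differences of Il17rc and Il17rd were -0.36 ± 0.20 and -0.14 ± 0.27 (adjusted p = 0.212 and 0.727). Il17ra, the chain they share, did not pass (0.27 ± 0.27, adjusted p = 0.496).

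**Figure D3:**
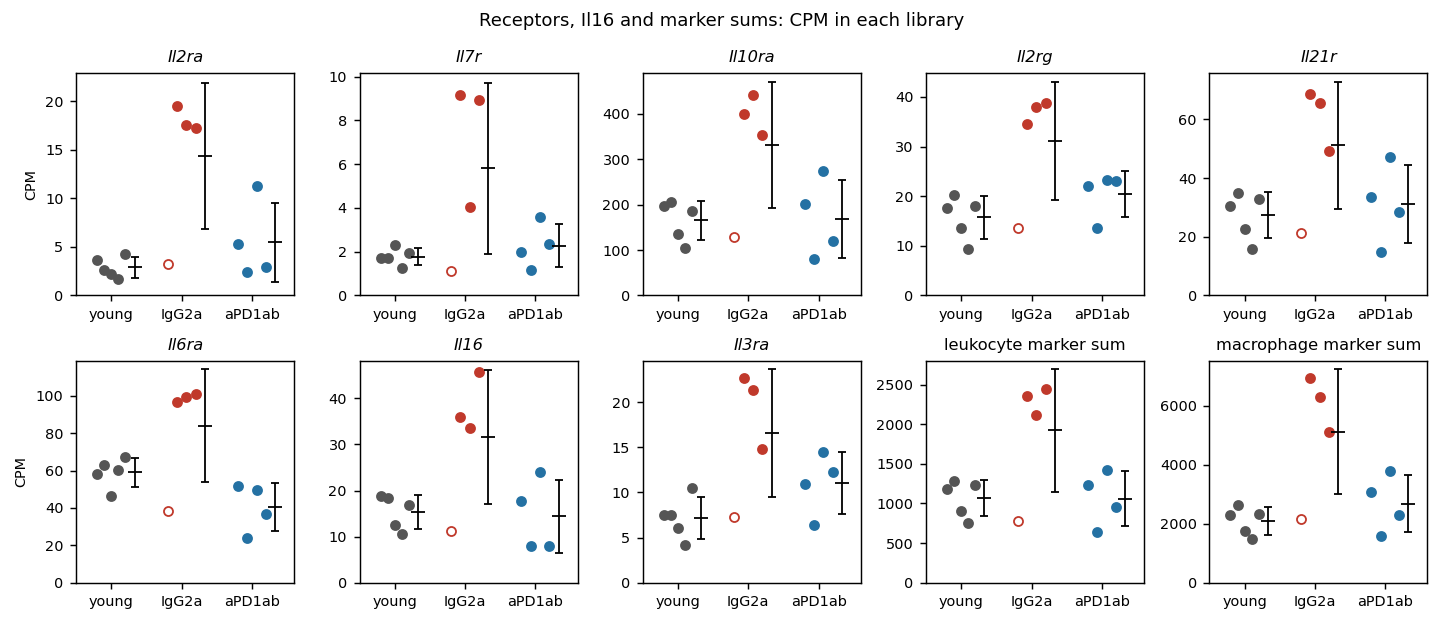
CPM of 8 members and of the summed leukocyte and macrophage markers, 1 point per library with the mean and SD as a bar (young n = 5, IgG2a n = 4, aPD1ab n = 4). In every panel IgG2a replicates 2 to 4 lie above all young libraries and the open point, IgG2a replicate 1, lies with or near the young and aPD1ab libraries.

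Of the 19 members that rose without IgG2a replicate 1, 16 overlapped the young libraries once divided by the leukocyte marker sum. Il2ra stayed above the young range, and Il4ra and Il6ra lay below it (Il6ra at 41.2 to 47.1 CPM per 1000 marker CPM against 48.8 to 80.4 in young). The 5 leukocyte markers were themselves all called higher in that fit, and 9 of 9 macrophage markers as well. The ratio was computed for called members only. The 16 of 19 therefore has no share over all genes beside it and is no result about the members as a group. This ratio describes the libraries and carries no test, and the part of leukocyte content in the differences was not tested.

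**Figure D4:**
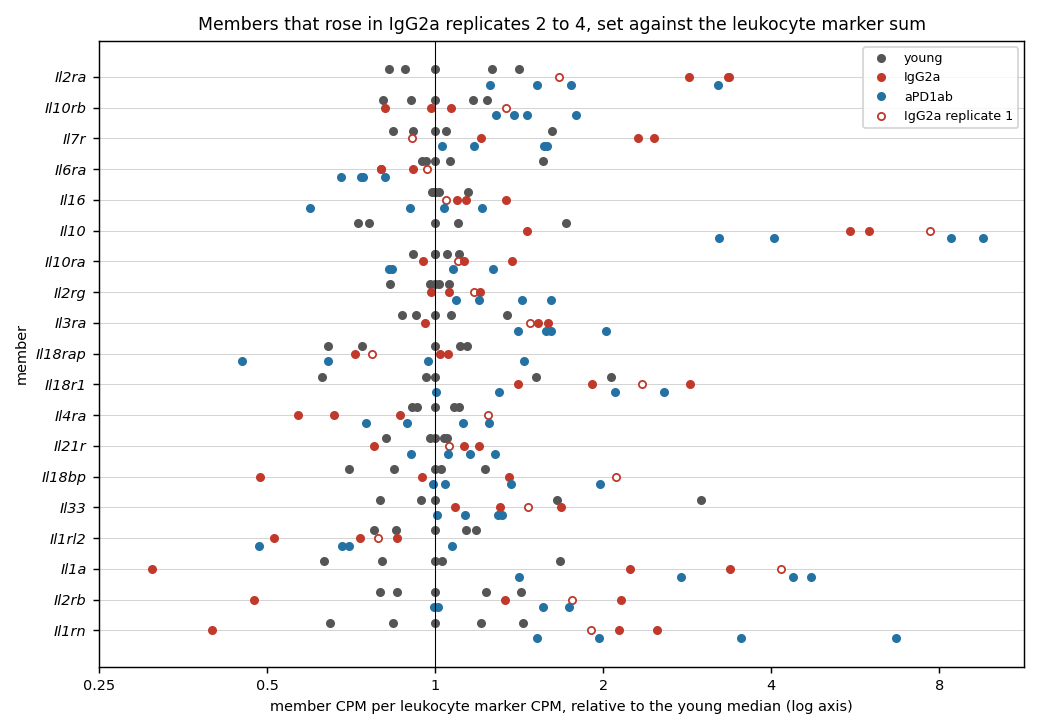
The 19 members that rose in IgG2a replicates 2 to 4, as CPM divided by the leukocyte marker sum of the same library and by the young median of that ratio, on a log axis, with 1 point per library. For 16 members the filled red points overlap the grey ones, for Il2ra they lie above them and for Il4ra and Il6ra below. For Il10, Il10rb, Il1rn, Il2rg and Il3ra all 4 blue points lie above all grey ones, and for Il6ra below.

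Anti-PD-1 treatment was compared with the control antibody in aged mice over 50 tested members. With all libraries no member was called by edgeR, and the same held for all genes (0% higher and 0% lower of 15530, lowest adjusted p = 0.102). At an unadjusted p under 0.05 stood 9 members and 4341 genes. DESeq2 called 0 members higher and 1 lower, beside 1390 and 983 of 15530 genes. The limma voom fit with sample weights called 3 members higher and 18 lower, beside 3248 and 2929 genes. A single edgeR fit of all 3 groups called 3 higher and 1 lower, beside 1861 and 1002 of 16330 genes. Leaving out any 1 library other than IgG2a replicate 1 gave no call of a member or of any other gene. Without IgG2a replicate 1, 2 members rose and 13 fell in aPD1ab, beside 17.1% and 13.2% of 15770 genes. The median log2 difference of members was -0.39, or -0.53 in the reduced set, against -0.01 and 0.01 for all genes.

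In the reduced set Il6ra fell the most clearly, by 1.32 (adjusted p = 0.00801, against 0.116 with all libraries). Of the common gamma chain receptors and Il13ra1, 6 of 9 fell, beside 13.2% of all genes, and the difference of these shares was not tested. They were Il2ra (-1.77 ± 0.48), Il7r (-1.73 ± 0.41), Il21r (-1.01 ± 0.32), Il2rg (-0.89 ± 0.18), Il4ra (-0.67 ± 0.18) and Il13ra1 (-0.52 ± 0.12), with adjusted p between 0.011 and 0.0472. For Il2ra and Il7r all aPD1ab libraries were below IgG2a replicates 2 to 4 and above or near IgG2a replicate 1. Il10ra (-1.27 ± 0.37, adjusted p = 0.0344), Il3ra (-0.87 ± 0.27, adjusted p = 0.0413) and Il16 (-1.45 ± 0.38, adjusted p = 0.0261) fell as well. The last 3 that fell were low in all libraries: Il33 (-1.38 ± 0.33, adjusted p = 0.0183), Il27, a cytokine of myeloid cells (-1.40 ± 0.41, adjusted p = 0.0358), and Il12rb1, the chain shared by the IL-12 and IL-23 receptors (-1.85 ± 0.55, adjusted p = 0.0362). The 5 leukocyte and 9 macrophage markers were called lower in the same fit. Divided by the leukocyte marker sum, 12 of these 13 members overlapped between IgG2a replicates 2 to 4 and aPD1ab, and Il13ra1 was then higher in aPD1ab (39 to 76.8 against 26.6 to 33.4 CPM per 1000 marker CPM). The share of all genes that would overlap in the same way was not computed.

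Il17rc, a chain of the receptor for IL-17A and IL-17F, and Il11ra1 were the 2 members that rose. Il17rc read 9.33, 8.21, 11.3, 10.1 and 8.7 CPM in the young libraries, 10.5, 5.77, 6.68 and 5.39 in IgG2a and 13.1, 11.5, 10.2 and 10.6 in aPD1ab. Its aPD1ab libraries lay above IgG2a replicates 2 to 4, and IgG2a replicate 1 lay within the aPD1ab range. The difference was 0.91 ± 0.16 (adjusted p = 0.00866), or 0.67 ± 0.22 with all libraries (adjusted p = 0.121). For Il11ra1 it was 0.60 ± 0.15 (adjusted p = 0.0204) or 0.49 ± 0.16 (adjusted p = 0.119), and no aPD1ab library overlapped any IgG2a library, replicate 1 included. Proximal tubule markers moved with this contrast too, at 565.7 to 902 CPM in IgG2a replicates 2 to 4, 2988 in replicate 1 and 2775 to 9138 in aPD1ab, and their part in the rise of either gene was not tested.

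**Figure D5:**
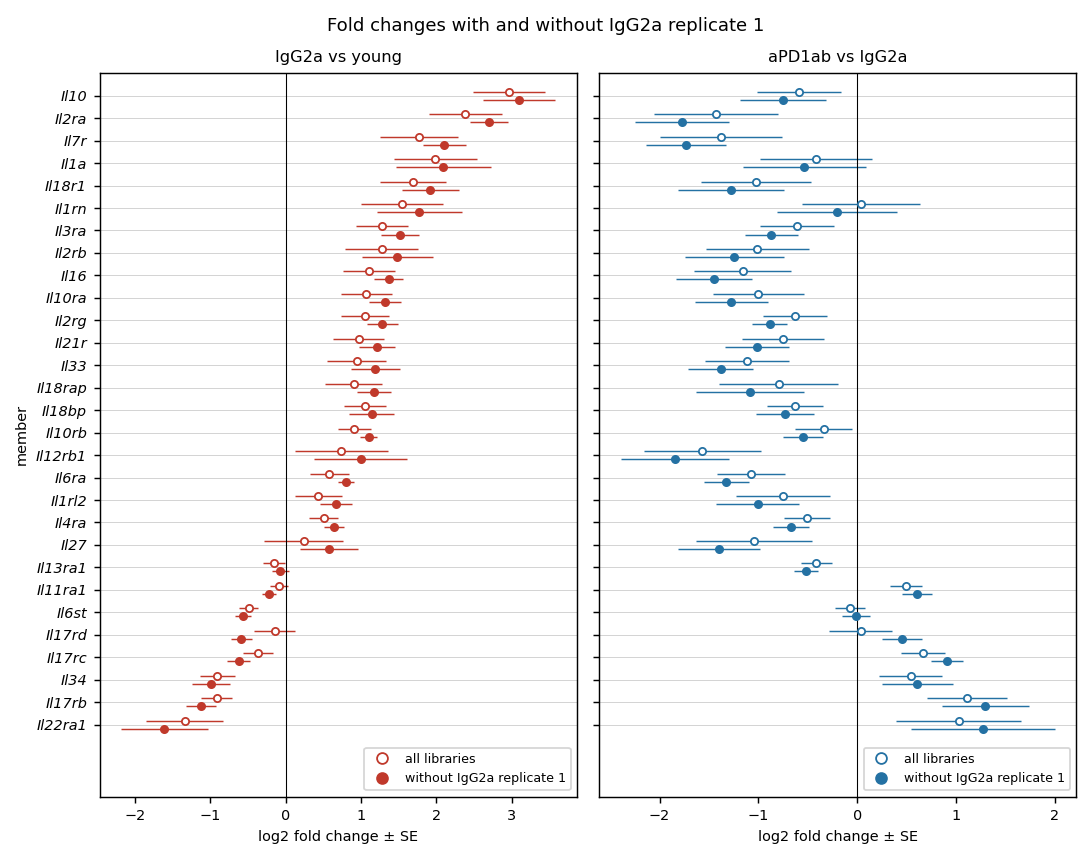
Log2 fold changes with SE of every member called in a comparison with IgG2a, with all libraries (open) and without IgG2a replicate 1 (filled), for IgG2a against young (left) and aPD1ab against IgG2a (right). Leaving out the library moves most values away from 0 and shortens most error bars, but it lengthens some, those of Il1a and Il34 in both panels among them. The panels share the IgG2a libraries, so a high IgG2a value moves a gene right in the left panel and left in the right one.

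Values of several members that passed in no comparison follow. Il15, the most abundant common gamma chain ligand, lay at 11.6 ± 1.51 CPM in young (SD, n = 5), 13.2 ± 2.26 in IgG2a (n = 4) and 12 ± 1.66 in aPD1ab (n = 4), with adjusted p of 0.263, 0.594 and 0.811 in the 3 comparisons (0.0505 for IgG2a against young without IgG2a replicate 1). Il6, the acute-phase cytokine, was 3.11 ± 1.34 in young and 5.79 ± 2.05 CPM in aPD1ab (0.91 ± 0.34, adjusted p = 0.0806). Il12b, the shared subunit of IL-12 and IL-23, gave 0.17 ± 0.47 (adjusted p = 0.826) for the same comparison. Il4, a cytokine of type 2 immunity, was under 1.1 CPM everywhere and did not pass. Il4i1, an amino acid oxidase, shares 83.9% of its exon bases with opposite-strand exons of Tbc1d17, so its counts are uncertain.

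Of the other genes of these pathways, 1 of 4 JAK kinases, 1 of 7 STAT factors, 0 of 4 feedback inhibitors, 1 of 6 partner receptor chains and 2 of 9 adaptors rose in IgG2a against young, beside 9.05% of all genes, and none fell. In aPD1ab against young, 2 of 4 feedback inhibitors and 1 of 9 adaptors rose, beside 12.4% of all genes, and 1 JAK kinase and 1 partner chain fell, beside 9.97%. Of the JAK kinases, Jak3, the kinase bound by the common gamma chain, rose in IgG2a against young (0.59 ± 0.15, adjusted p = 0.0314) and Jak2 fell in aPD1ab against young (-0.48 ± 0.11, adjusted p = 0.0124). Jak1, the most abundant, did not pass (0.01 ± 0.12 and -0.27 ± 0.11 in the same comparisons, adjusted p = 0.958 and 0.106). Of the STAT factors, Stat3, the main target of gp130 and IL-10 receptors, rose in IgG2a (0.35 ± 0.10, adjusted p = 0.0396). In aPD1ab its difference from young was 0.23 ± 0.12 (adjusted p = 0.189). Of the feedback inhibitors, Socs2 (0.91 ± 0.17, adjusted p = 0.0066) and Socs3 (0.71 ± 0.21, adjusted p = 0.036) rose in aPD1ab against young, and none was called in IgG2a against young. Of the partner receptor chains, Csf1r, the receptor of Il34 and CSF-1 and itself a macrophage marker, rose in IgG2a (1.16 ± 0.31, adjusted p = 0.0324) and Lifr, a partner of gp130, fell in aPD1ab against young (-0.85 ± 0.23, adjusted p = 0.0253). Of the IL-1 and IL-17 receptor adaptors, Myd88 rose in both aged groups (0.56 ± 0.16 and 0.38 ± 0.10, adjusted p = 0.0401 and 0.0183) and Irak4 in IgG2a (0.72 ± 0.20, adjusted p = 0.0384). Irak1, the most abundant adaptor, did not pass (-0.18 ± 0.08 in aPD1ab against young, adjusted p = 0.135).

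Without IgG2a replicate 1, 2 of 4 JAK kinases, 5 of 7 STAT factors, 4 of 6 partner chains and 4 of 9 adaptors rose in IgG2a against young, beside 22.1% of all genes and with all 5 leukocyte and 9 macrophage markers. Sigirr, a negative regulator of IL-1 family receptors, fell (-1.23 ± 0.13, adjusted p = 4.89e-05). In aPD1ab against IgG2a, 3 JAK kinases, 3 STAT factors, 5 partner chains and 2 adaptors fell in this reduced set, beside 13.2% of all genes and with the same 5 leukocyte and 9 macrophage markers. The part of leukocyte content in these calls was not tested. Csf2rb, the common beta chain, fell by 0.96 (adjusted p = 0.00783), and the feedback inhibitors Cish (1.19 ± 0.33, adjusted p = 0.0298) and Socs2 (0.92 ± 0.25, adjusted p = 0.0266) and the regulator Sigirr (1.74 ± 0.37, adjusted p = 0.0132) rose.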

How the data were processed

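Podocyte fractions were sequenced from polyadenylated RNA with TruSeq kits, and the deposited table holds whole-number read counts per Ensembl gene, without normalization. The authors used HISAT2 and featureCounts on mm10 (GRCm38) per the labels' processing notes; versions and the strand setting are not given in the sources used here. Columns carry numbers only: 13 of 15 were tied to a group by the numbers in the study's principal component plot, and 2 were not used. Symbols, exon lengths and positions came from GENCODE M21 (GRCm38), which holds 45143 of the 46078 genes.

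Each pair of groups was fitted over all genes in R 4.3.3 with edgeR 4.0.16 (robust quasi-likelihood, TMM, filterByExpr), with Benjamini-Hochberg adjustment and a call at an adjusted p under 0.05. Steps were tested on simulated data. CPM are TMM-scaled. Levels of 3 counts or fewer were treated as at the floor. Depth intervals cover counting error only. Alternatives were DESeq2 1.42.0, limma 3.58.1 voom with sample weights, 1 fit of all groups, RLE scaling, no filter, a 2-fold requirement and leaving out each library. Libraries are separate mice by the labels.

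Members and gene lists were chosen with earlier results of these data known. Named members are those past a call, the 10 highest per exon length and the most abundant of each role list. The ratio to leukocyte markers was chosen after seeing the data. Promoter windows came from RefSeq (GRCm38.p6).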

Additional observations from a re-analysis of the deposited data

Results flagged for a closer look

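Among 37 named members in 3 groups (111 sets of values), 10 values stood apart from their group by a gap test (Dixon's 95% limits). Such limits mark about 1 in 20 sets by chance, but that rate cannot be applied here. Some members, Il6ra and Il17rd among them, were named because they passed only without IgG2a replicate 1, and the sets share libraries. IgG2a replicate 1 held 4 of the 10 values. It had 3.19 CPM of Il2ra against 17.2 to 19.5 in the other IgG2a libraries, 38.6 of Il6ra against 96.9 to 101, 13.6 of Il2rg against 34.5 to 38.7, and 23.9 of Il17rd against 8.51 to 10.99. Its first-component position and marker sums, given above, stood apart too.

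In the aPD1ab group, replicate 2 had 13.6 CPM of Il2rg against 22.1 to 23.2, and 11.2 of Il34 against 5.37 to 6.36, and replicate 3 had 72.0 of Il11ra1 against 51.4 to 53.7. In the young group, replicate 4 had 19.6 CPM of Il1r1 against 9.71 to 11.1, replicate 5 had 5.00 of Il18r1 against 1.59 to 2.32, and replicate 2 had 2.78 of Il12b against 1.46 to 1.71. Causes of these values were not tested.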

How the results depend on the processing

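No paired analysis was possible because the columns carry no replicate numbers that link libraries across groups. For IgG2a against young, members higher (9) became 14 with DESeq2, 19 with voom weights and 5 without a filter. They ranged from 1 to 19 when 1 library was left out. All genes called higher (1443 of 15953) became 2289, 3898 and 828 (of 26039) and ranged from 260 to 3584. Members lower (3) became 5 with DESeq2, 7 with voom weights and 0 with the 2-fold requirement, and ranged from 0 to 6. All genes called lower (1337) became 2166, 3549 and 732 and ranged from 293 to 3813. For aPD1ab against IgG2a, members higher (0) became 3 with voom weights and 3 in 1 fit of all groups, with 0 to 2 when a library was left out. All genes called higher (0 of 15530) became 3248 and 1861 (of 16330), with 0 to 2702. Members lower (0) became 1 with DESeq2, 18 with voom weights and 1 in 1 fit of all groups, with 0 to 13. All genes called lower (0) became 983, 2929 and 1002, with 0 to 2086. For aPD1ab against young, members higher (5) became 1 in 1 fit of all groups, 3 without a filter and 3 with the 2-fold requirement. They ranged from 2 to 7 when a library was left out. All genes called higher (1984 of 15986) became 1491 (of 16330), 1546 (of 26041) and 336, with 1293 to 2122. Members lower (4) became 1 with the 2-fold requirement, with 2 to 4. All genes called lower (1594) became 430, with 1024 to 1746. Of 49 member differences called with or without IgG2a replicate 1, 1 changed sign: Il17rd in IgG2a against young was 0.0197 without IgG2a replicate 2 and ranged down to -0.59 without IgG2a replicate 1. Of members named without a call, 3 of 11, 6 of 21 and 11 of 27 changed sign at least once for IgG2a against young, aPD1ab against IgG2a and aPD1ab against young. Causes were not tested. Transcripts below about 0.15 CPM, without TMM adjustment, could not be measured at this depth. The limit is higher on the TMM-adjusted scale in libraries with a TMM factor under 1.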
